A study of Mus musculus with 22 samples.

Results

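The 29 genes described here encode enzymes of cholesterol and fatty acid synthesis and the proteins that govern their transcription. They were chosen by name, from knowledge of the pathways, and fall into 17 enzymes of the route that leads by way of mevalonate to cholesterol (Hmgcs1, Mvk, Pmvk, Mvd, Idi1, Fdps, Fdft1, Sqle, Lss, Cyp51, Tm7sf2, Msmo1, Nsdhl, Hsd17b7, Ebp, Sc5d and Dhcr7), 5 regulators and carriers of sterols (Insig1, Srebf1, Srebf2, Scap and Stard4) and 7 enzymes that make or modify fatty acids (Fasn, Acaca, Scd1, Scd2, Acly, Elovl6 and Acss2). Earlier results of these data were known when these genes and the further gene lists were chosen. Counts of members set beside the share of all genes are therefore descriptions. All 29 were present, through 145 transcripts, among the 17023 genes to which the estimated counts were summed.

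RNA was sequenced from 22 samples of TCL1-355 TKO, a mouse leukemia line derived from the Eμ-TCL1 model of CLL, in which the TCL1 transgene is driven in B cells. All groups share biallelic lesions in tumor suppressor genes of the line, among them CDKN2A and CDKN2B. In NFKBIE-ko cells exon 2 of Nfkbie had been edited with CRISPR/Cas9 ribonucleoprotein in bulk, without picking clones, and NFKBIE-wt cells were mock-edited. The genotypes were propagated apart in 2 C57BL/6 mice for 21 days, then injected into the peritoneum of further C57BL/6 mice and taken 10 days later from spleen and peritoneal cavity (PC), with 4 samples for each genotype and compartment. The in vitro groups, 3 samples for each genotype, were cells from spleens of 3 mice that had been cultured for 2 weeks. The recipient mice were 2 to 3 months old. The labels give blood as the tissue of every sample, so the compartment was taken from the sample title. The genotypes and their separate propagation cannot be told apart. Cells from mice were not purified, so each sample also held non-leukemic cells, and a change in cell composition cannot be told apart from a change in RNA per cell.

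Cholesterol is made from acetyl-CoA by way of mevalonate, isoprenoids, squalene and lanosterol. Transcription of these enzymes is driven by SREBP2, the product of Srebf2, and that of fatty acid enzymes largely by SREBP1, the product of Srebf1. When the endoplasmic reticulum holds enough sterol, the INSIG proteins retain the SREBP precursors there with their escort SCAP; when sterol is low, the precursors travel to the Golgi, are cleaved, and their active part enters the nucleus. SREBPs bind sterol regulatory elements and E-boxes, commonly together with NF-Y and Sp1 bound nearby. Proliferating lymphocytes are known to draw on this pathway for membranes.

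The promoters of 23 of the 29 genes could be read from RefSeq (build GRCm38.p6, from 250 bases before to 50 bases after each start). The sterol regulatory element was searched as TCACNCCAC on both strands and stood in 1 of the 23 (4.3%), that of Hmgcs1, against 1.44% of the 27025 genes with a promoter. The E-box CACGTG stood in 5 (21.7%, against 8.09% of all genes), those of Hsd17b7, Insig1, Dhcr7, Sc5d and Scap. The NF-Y box CCAAT stood in 20 (87.0%, against 41.06%) and the Sp1 box GGGCGG in 19 (82.6%, against 38.2%). Matches of different motifs overlapped in 0 cases, and a match of letters says nothing of binding in these cells. Stretches of 3 promoters are shown because their genes carry the difference between culture and mice described next. That of Hmgcs1 was the only one with the sterol regulatory element, and those of Msmo1 and Insig1 were chosen after their values were seen. Capitals mark the sterol regulatory element in Hmgcs1 (chr13:119690154-119690283, forward strand), 3 NF-Y boxes in Msmo1 (chr8:64733603-64733778, reverse strand) and the E-box in Insig1 (chr5:28071271-28071341, forward strand), each written 5′ to 3′ along its gene.
Hmgcs1: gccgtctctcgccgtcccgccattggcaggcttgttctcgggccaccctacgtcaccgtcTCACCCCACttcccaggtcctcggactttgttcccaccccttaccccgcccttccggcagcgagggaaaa
Msmo1: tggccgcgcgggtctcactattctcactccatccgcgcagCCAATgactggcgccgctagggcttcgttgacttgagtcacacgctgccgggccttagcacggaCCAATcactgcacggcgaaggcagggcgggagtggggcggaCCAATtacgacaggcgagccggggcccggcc
Insig1: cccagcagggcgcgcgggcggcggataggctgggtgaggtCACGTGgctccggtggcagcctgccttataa

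Libraries summed to estimated counts of 24036763 to 26581303, and each member but Elovl6 held at least 65 counts in every library. Levels are given as CPM, TMM-scaled counts relative to library size. Of the 22 libraries, 18 correlated best, across 12577 genes, with the mean of their own labelled group. The library labelled NFKBIE-wt spleen replicate 4 was nearest to the NFKBIE-wt in vitro libraries (r of 0.99, against 0.958 with its own group), and its 8 erythroid and 8 granulocyte markers summed to 6.89 and 0.155 CPM. NFKBIE-wt in vitro replicate 3 was by contrast nearest to the NFKBIE-wt spleens (r of 0.988, against 0.949), and the same markers summed to 1440 and 142 CPM. The first and second NFKBIE-wt cultures were nearest to the NFKBIE-ko cultures (r of 0.978 and 0.991, against 0.977 and 0.965 with their own group, whose mean includes the third). NFKBIE-wt spleen replicate 4 and NFKBIE-wt in vitro replicate 3 go against their labels, and the counts of members called that these 2 libraries enter are therefore given with and without them. The leukemic B-cell markers, 8 of 8, were expressed in every group, with sums from 1480 to 3570 CPM. Nfkbie, the edited gene, was lower in the NFKBIE-ko PC (47.2 to 64.9 CPM) than in the NFKBIE-wt PC (67.3 to 91.2 CPM), by -0.56 on the log2 scale (SE 0.12, adjusted p of 0.00377). In the spleen its log2 fold change was 0.19 (SE 0.27, adjusted p of 0.730) and in vitro -0.93 (SE 0.33, adjusted p of 0.517), or 0.43 (adjusted p of 0.294) and -1.23 (adjusted p of 0.0925) without the 2 libraries. Small insertions and deletions need not remove a transcript, so this level is a weak check of the labels. Adjusted p-values throughout come from quasi-likelihood tests in edgeR, adjusted over all genes by the Benjamini-Hochberg procedure, and a gene was called at an adjusted p below 0.05.

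Per length of transcript, the 29 genes spanned a wide range of levels. Scd1, which puts a double bond into saturated fatty acids, averaged 352 CPM per kilobase over the 22 libraries, followed by Acly, which makes cytosolic acetyl-CoA from citrate (163), and Scd2, the other stearoyl-CoA desaturase measured (108). Among the genes of sterol synthesis, Srebf2 (73.6), Sqle (46.2), Idi1 (46.0) and Fdps (38.4) stood highest. Acss2, which makes acetyl-CoA from acetate, averaged 3.31 CPM per kilobase. Elovl6, the elongase of palmitate, averaged 0.0349 and held between 0 and 18 counts per library. Scd1 and Scd2 are similar in sequence, and how the reads they share were divided between them is uncertain. Retained-intron transcripts held 26.1% of the counts of Lss, 17.1% of those of Tm7sf2 and 14.7% of those of Srebf2.

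**Figure D1:**
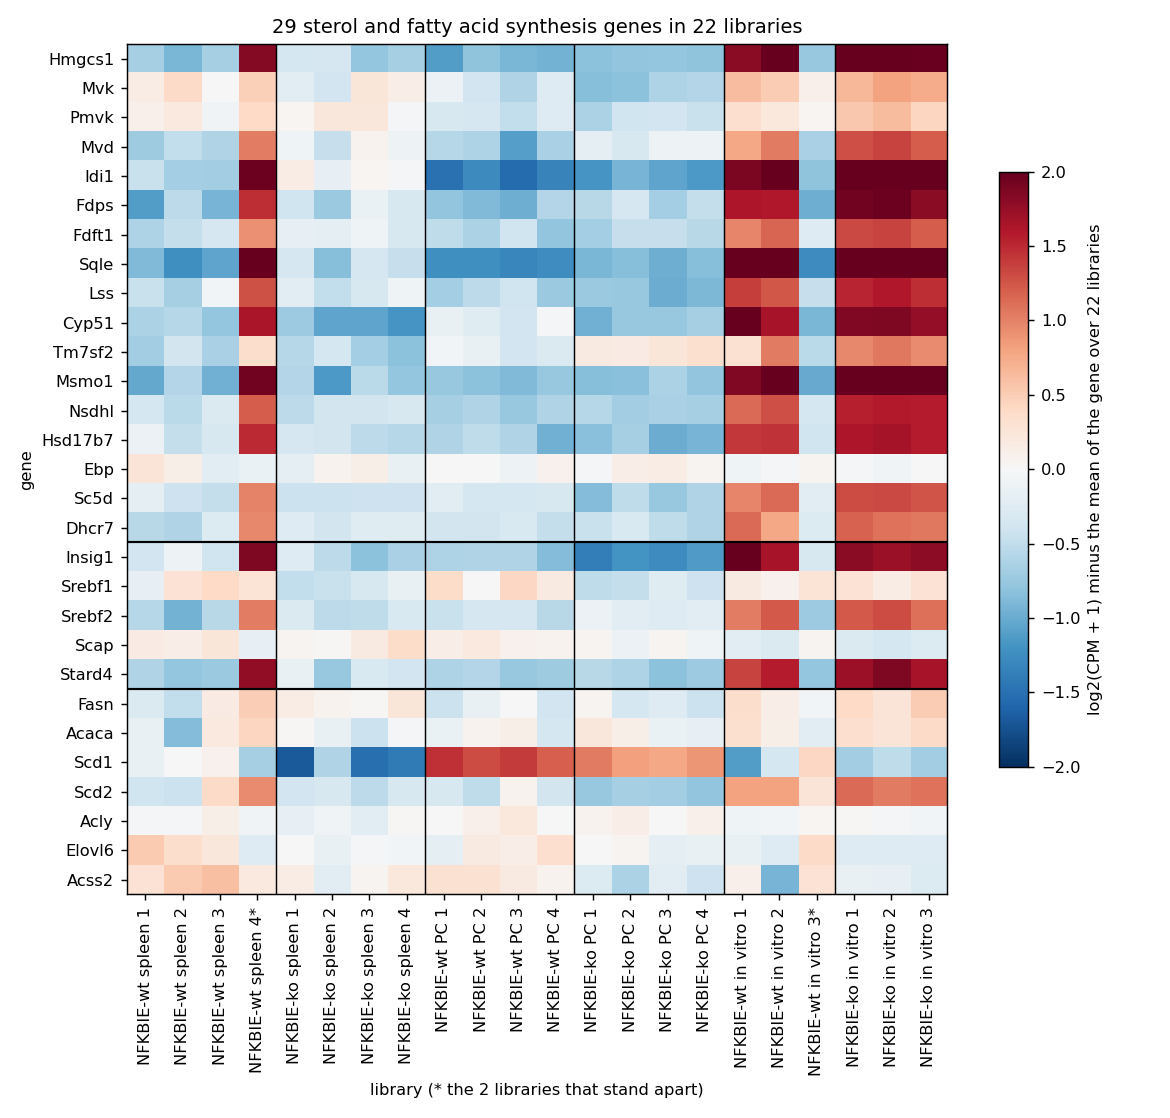
Level of each of the 29 genes (rows, by list) in each of the 22 libraries (columns, by group), as log2(CPM + 1) minus the mean of that gene over the libraries, with colours saturating at 2 in either direction and an asterisk at the 2 libraries that stand apart. Most cholesterol enzymes, Insig1, Srebf2 and Stard4 are high in the in vitro libraries other than NFKBIE-wt in vitro replicate 3, and in NFKBIE-wt spleen replicate 4.

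Cultured cells were compared with cells from mice first, since this is where the genes of cholesterol synthesis differed most. In NFKBIE-ko cells, 16 of the 17 cholesterol enzymes were higher in vitro than in the spleen, with a median log2 fold change of 1.87 over the 17. Ebp, the sterol isomerase, was the exception, at -0.01 (SE 0.11, adjusted p of 0.973). Of the 29 genes, 21 were higher and 1 was lower, where 13.4% of the 13537 genes tested were higher and 16.9% lower, and the median of all genes tested was -0.07. Without the 2 libraries, which are not NFKBIE-ko and enter this comparison through the shared spread, 22 were higher and 2 lower, against 15.2% and 23.8% of the genes tested.

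The values of single libraries were far apart between culture and mice. Sqle, the epoxidase that makes the first oxygenated precursor of the sterols, stood at 415, 418 and 374 CPM in the NFKBIE-ko cultures, at 53.0, 37.0, 53.3 and 48.5 in the NFKBIE-ko spleens and at 35.1, 36.8, 33.7 and 36.8 in the NFKBIE-ko PC. In NFKBIE-wt cells it stood at 360, 358 and 27.6 CPM in culture, at 36.1, 28.1, 32.0 and 381 in the spleen and at 28.1, 28.2, 26.7 and 27.9 in the PC. Every NFKBIE-ko culture lay above every NFKBIE-ko library from mice, whereas the NFKBIE-wt groups overlapped because the third culture was low and the fourth spleen was high. Between NFKBIE-ko culture and spleen the log2 fold change of Sqle was 3.07 (SE 0.78, 8.39-fold, adjusted p of 0.00733).

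Msmo1, a monooxygenase that acts on methyl groups of sterols, had 183, 188 and 171 CPM in the NFKBIE-ko cultures, 23.0, 15.2, 23.9 and 20.2 in the NFKBIE-ko spleens and 19.1, 19.3, 22.4 and 19.9 in the NFKBIE-ko PC. Its NFKBIE-wt libraries held 129, 162 and 16.9 CPM in culture, 16.7, 23.1, 17.6 and 136 in the spleen and 20.3, 19.4, 18.6 and 20.3 in the PC. The same pair of NFKBIE-wt libraries stood apart. Its log2 fold change between NFKBIE-ko culture and spleen was 3.13 (SE 0.65, 8.77-fold, adjusted p of 0.00239).

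Cyp51, the demethylase of lanosterol, had 345, 349 and 322 CPM in the NFKBIE-ko cultures, 56.6, 45.3, 45.3 and 41.3 in the spleens and 48.4, 55.7, 55.4 and 59.2 in the PC. In NFKBIE-wt cells it had 404, 299 and 49.8 CPM in culture, 60.7, 63.4, 55.0 and 297 in the spleen and 85.4, 79.8, 72.2 and 92.3 in the PC. Cultures of NFKBIE-ko cells did not overlap with either compartment, and the rise from the spleen was 2.84 on the log2 scale (SE 0.55, 7.18-fold, adjusted p of 0.00171).

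Idi1, the isomerase that supplies both building blocks of isoprenoids, had 338, 359 and 326 CPM in the NFKBIE-ko cultures, 81.6, 65.5, 75.3 and 72.1 in the spleens and 31.8, 37.9, 34.6 and 32.6 in the PC. Its NFKBIE-wt libraries held 274, 326 and 41.6 CPM in culture, 53.7, 45.2, 44.8 and 288 in the spleen and 25.3, 29.8, 24.6 and 28.5 in the PC. In NFKBIE-ko cells the 3 groups did not overlap, with the PC lowest and the cultures highest. Hmgcs1, which makes HMG-CoA, had 318, 339 and 282 CPM in the NFKBIE-ko cultures against 55.4, 55.8, 40.8 and 44.4 in the spleens and 39.7, 40.5, 40.8 and 39.9 in the PC, a log2 fold change of 2.67 from the spleen (SE 0.58, 6.38-fold, adjusted p of 0.00318). In NFKBIE-wt cells Hmgcs1 had 250, 302 and 41.3 CPM in culture, 44.1, 37.1, 44.4 and 255 in the spleen and 32.2, 40.2, 37.0 and 36.2 in the PC, so that only the pair of libraries named above put culture and mice in overlap.

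**Figure D2:**
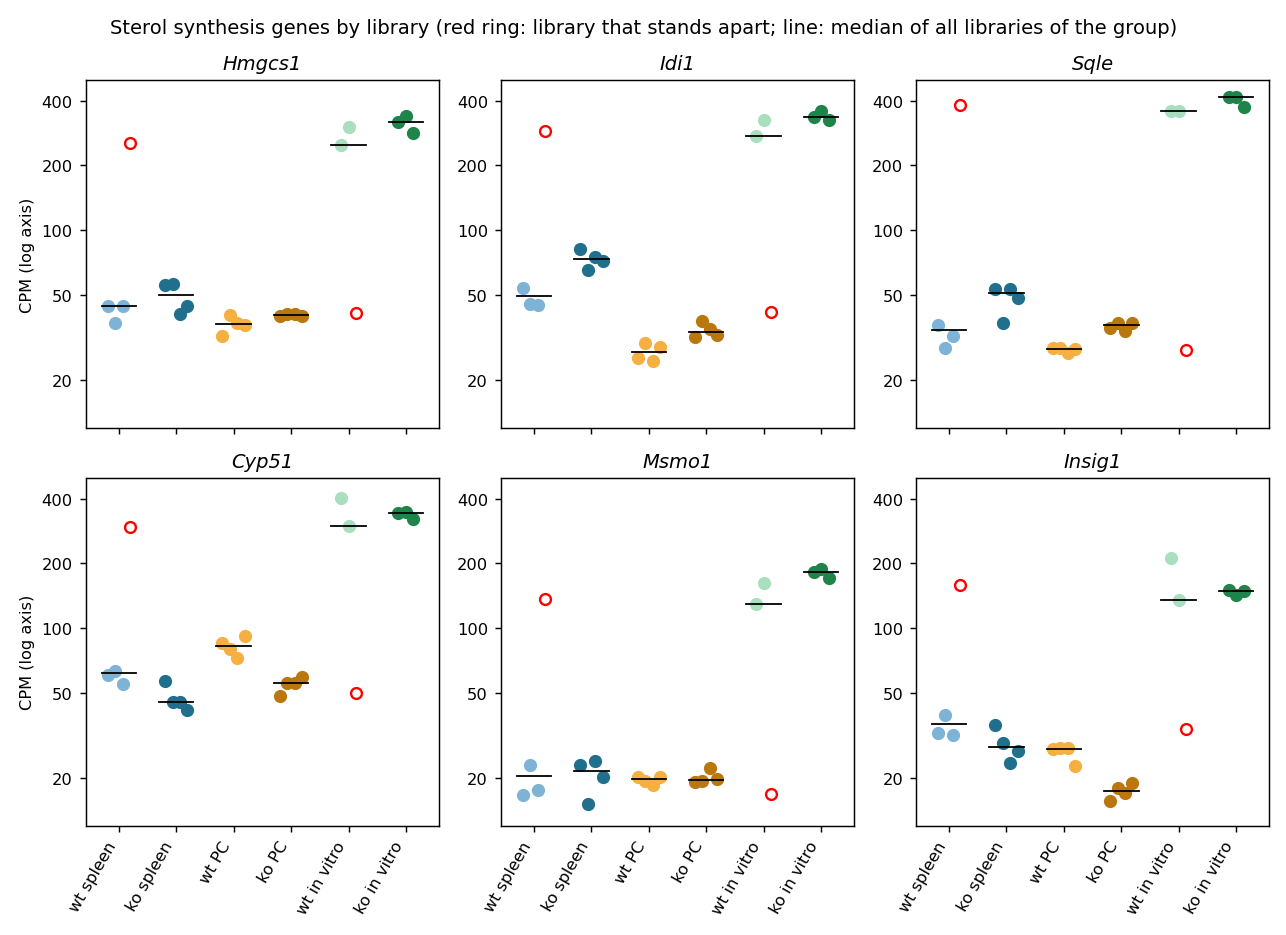
CPM on a log axis of 6 genes of sterol synthesis in each library, by group; each point is a library, open red rings mark the 2 libraries that stand apart, and lines are the medians of all libraries of a group. Sqle lies between 358 and 418 CPM in the in vitro libraries other than the ringed one, and between 26.7 and 53.3 CPM in the spleen and PC libraries other than the ringed one.

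The regulators moved in both directions in culture. Insig1, whose product holds SREBP precursors back and which is itself a target of SREBPs, had 150, 142 and 149 CPM in the NFKBIE-ko cultures, 35.4, 29.1, 23.6 and 26.7 in the spleens and 15.7, 17.9, 17.1 and 18.9 in the PC, a log2 fold change of 2.36 from the spleen (SE 0.50, 5.13-fold, adjusted p of 0.00286). In NFKBIE-wt cells it had 212, 135 and 33.7 CPM in culture, 32.3, 39.5, 31.8 and 158 in the spleen and 27.2, 27.6, 27.5 and 22.8 in the PC. The NFKBIE-ko cultures lay above all libraries from NFKBIE-ko mice.

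Stard4, which carries cholesterol between membranes, had 113, 126 and 108 CPM in the NFKBIE-ko cultures, 30.3, 19.5, 27.3 and 25.6 in the spleens and 22.6, 21.6, 18.7 and 20.0 in the PC. In NFKBIE-wt cells it had 87.6, 102 and 19.3 CPM in culture, 21.9, 19.3, 19.9 and 118 in the spleen and 21.6, 22.1, 19.6 and 20.3 in the PC. The rise between NFKBIE-ko spleen and culture was 2.17 on the log2 scale (SE 0.54, 4.5-fold, adjusted p of 0.00622).

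Srebf2 had 617, 651 and 566 CPM in the NFKBIE-ko cultures, 215, 182, 184 and 211 in the spleens and 241, 226, 219 and 223 in the PC, a log2 fold change of 1.63 from the spleen (SE 0.38, 3.09-fold, adjusted p of 0.00489). In NFKBIE-wt cells it had 537, 614 and 158 CPM in culture, 176, 136, 178 and 532 in the spleen and 193, 208, 207 and 179 in the PC. The cultures of NFKBIE-ko cells did not overlap with the mice for Srebf2. Srebf1 rose less, by 0.60 (SE 0.13, 1.51-fold, adjusted p of 0.00248), and Scap, the escort, was lower in culture, by -0.47 (SE 0.10, 1.39-fold, adjusted p of 0.00332), with no overlap between culture and spleen for either.

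Of the 7 fatty acid enzymes, only Scd2 was called between NFKBIE-ko culture and spleen with all libraries. Scd2 had 1160, 1090 and 1120 CPM in culture and 405, 426, 367 and 422 in the spleen, a log2 fold change of 1.47 (SE 0.24, 2.77-fold, adjusted p of 0.000504). Fasn, which builds palmitate, changed by 0.26 (SE 0.18, adjusted p of 0.282), Acaca, which makes malonyl-CoA, by 0.47 (SE 0.21, adjusted p of 0.102) and Acly by 0.09 (SE 0.08, adjusted p of 0.407), and none of the 3 was called. Scd1 was at 0.60 (SE 0.27, adjusted p of 0.0967), and at 0.57 with an adjusted p of 0.0346 without the 2 libraries. Acss2 was at -0.28 (SE 0.23, adjusted p of 0.358). Elovl6 had 0 counts in all 3 NFKBIE-ko cultures and 2 to 5 in the spleens, too few for a fold.

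Leaving out the 2 libraries moved these changes between NFKBIE-ko culture and spleen little. They were then 3.03 for Sqle (SE 0.11), 3.09 for Msmo1 (SE 0.14), 2.81 for Cyp51 (SE 0.12) and 2.64 for Hmgcs1 (SE 0.11) among the enzymes of sterol synthesis. Among the other members named, Insig1 was at 2.32 (SE 0.14), Stard4 at 2.13 (SE 0.12), Srebf2 at 1.59 (SE 0.10), Srebf1 at 0.56 (SE 0.13), Scap at -0.51 (SE 0.08) and Scd2 at 1.43 (SE 0.15).

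The same NFKBIE-ko cultures were set against the PC, so both comparisons share these 3 libraries. Here 22 of the 29 genes were higher and 3 lower in culture, where 23.9% of the genes tested were higher and 24.1% lower. The counts were again 22 and 3 without the 2 libraries, against 24.5% and 28.5%. The median of the 17 cholesterol enzymes was 2.29, and Ebp was again not called (-0.12, SE 0.11, adjusted p of 0.388). Sqle rose by 3.50 (SE 0.79, 11.3-fold, adjusted p of 0.00135), Idi1 by 3.32 (SE 0.60, 9.96-fold, adjusted p of 0.000179) and Msmo1 by 3.16 (SE 0.65, 8.94-fold, adjusted p of 0.000593). Among the regulators Insig1 rose by 3.08 (SE 0.52, 8.47-fold, adjusted p of 9.16e-05), Stard4 by 2.48 (SE 0.54, adjusted p of 0.00100) and Srebf2 by 1.43 (SE 0.38, adjusted p of 0.00479), while Scap was lower by -0.28 (SE 0.10, adjusted p of 0.0334).

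The desaturases went opposite ways between PC and culture. Scd2 had 312, 333, 328 and 307 CPM in the NFKBIE-ko PC and rose in culture by 1.81 (SE 0.24, 3.5-fold, adjusted p of 7.6e-06). Scd1 had 2810, 2430, 2350 and 2530 CPM in the NFKBIE-ko PC and 842, 962 and 848 in culture, and was lower in culture by -1.52 (SE 0.28, 2.86-fold, adjusted p of 0.000251). Neither gene's groups overlapped. Fasn was higher in culture by 0.63 (SE 0.18, 1.54-fold, adjusted p of 0.00812), and Elovl6, at 1 to 6 counts in the PC and 0 in culture, was called lower (adjusted p of 0.0475), with too few counts for a fold.

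In NFKBIE-wt cells the comparison of culture with spleen turned on the 2 libraries. With all libraries, 5 of the 29 genes and 1059 of all genes had an unadjusted p below 0.05 in edgeR. After adjustment edgeR called 0 of the 29 and 0% of the genes tested in either direction. DESeq2 also called 0. Without the 2 libraries, 18 were higher and 4 lower, against 11.5% and 14.7% of the genes tested. Sqle then rose by 3.45 (SE 0.13, 11-fold, adjusted p of 1e-11), Msmo1 by 2.89 (SE 0.17, 7.42-fold, adjusted p of 1.6e-09) and Hmgcs1 by 2.69 (SE 0.13, 6.44-fold, adjusted p of 3.03e-10). Insig1 (2.29, adjusted p of 3.3e-08), Stard4 (2.19, adjusted p of 7.34e-09), Srebf2 (1.78, adjusted p of 8.83e-09) and Scd2 (0.87, adjusted p of 0.00178) were also higher. The 4 lower genes were Scap (-0.48, adjusted p of 0.00172), Scd1 (-0.70, adjusted p of 0.0461), Acss2 (-0.92, adjusted p of 0.0102) and Elovl6 (2 and 0 counts in culture against 10 to 18 in the spleen, adjusted p of 0.0160). Of the cholesterol enzymes, Mvk (0.37, adjusted p of 0.157), Pmvk (0.17, adjusted p of 0.328) and Ebp (-0.17, adjusted p of 0.368) were not called. This fit had 2 NFKBIE-wt cultures and 3 NFKBIE-wt spleens.

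Between NFKBIE-wt culture and PC, 19 of the 29 genes were higher and 1 was lower with all libraries, against 19.7% and 14.4% of the genes tested. Sqle rose by 3.16 (SE 0.78, adjusted p of 0.00489), Idi1 by 2.98 (SE 0.59, adjusted p of 0.00093) and Hmgcs1 by 2.44 (SE 0.58, adjusted p of 0.00368), and Scd1 was lower by -1.57 (SE 0.29, adjusted p of 0.00043). The NFKBIE-wt cultures held 628, 1070 and 1820 CPM of Scd1 and 922, 924 and 630 of Scd2, the third standing apart in both, and Scd2 rose by 0.91 (SE 0.24, adjusted p of 0.00667). Without the 2 libraries 21 were higher and 4 lower, against 20% and 22.9%, with Sqle at 3.65 (SE 0.12, 12.5-fold, adjusted p of 4.25e-13), Idi1 at 3.42 (SE 0.11, 10.7-fold, adjusted p of 4.25e-13) and Scd1 at -2.08 (SE 0.26, 4.23-fold, adjusted p of 5.36e-06). The standard errors of Sqle and Idi1 were several times smaller once the 2 libraries were left out, and that of Scd1 was nearly as before.

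**Figure D3:**
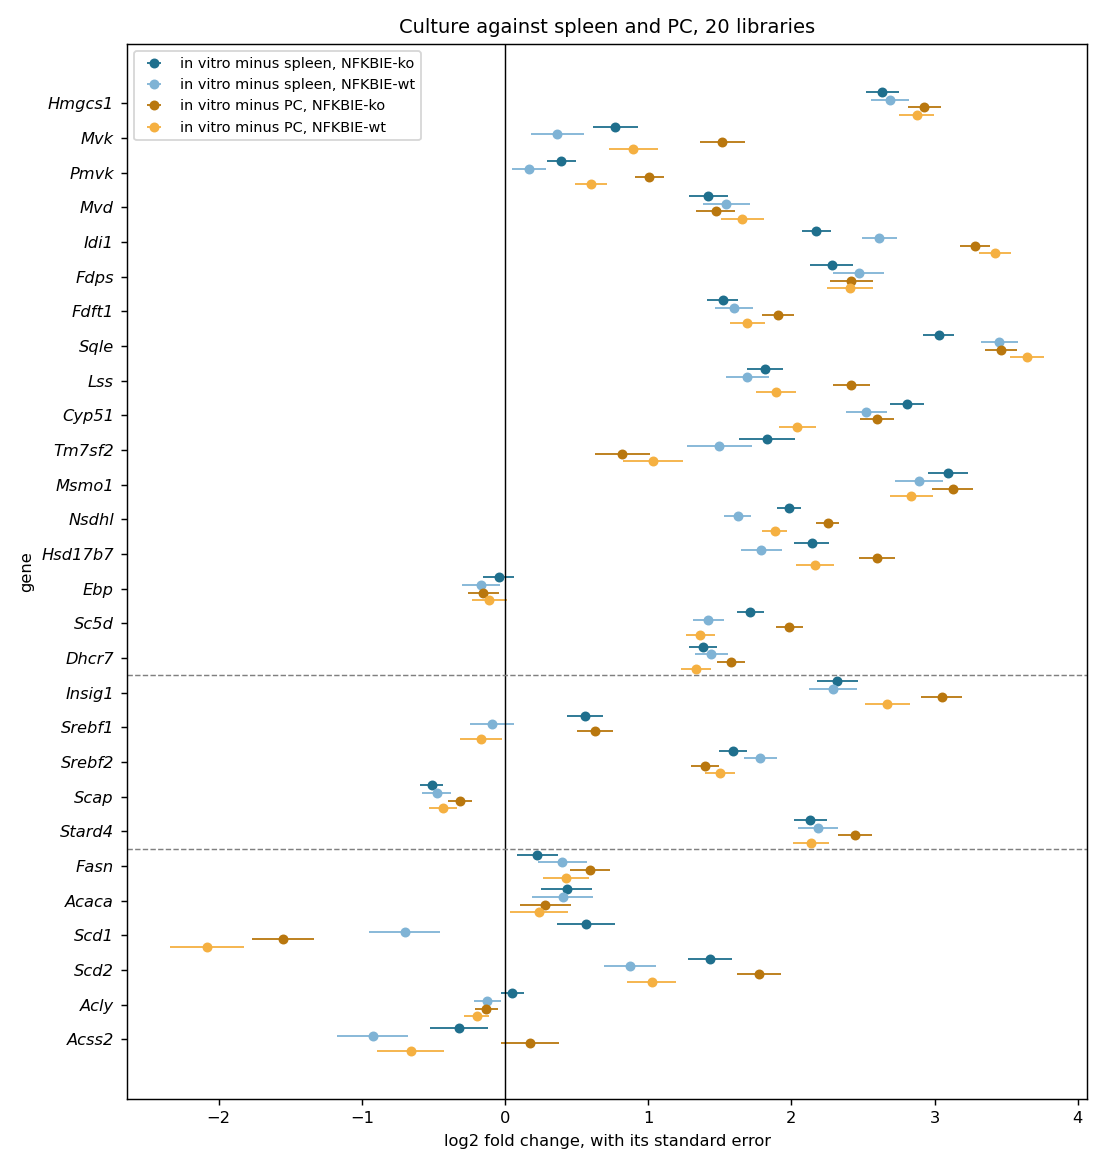
Log2 fold change of in vitro culture against spleen and against PC for each gene in NFKBIE-ko and NFKBIE-wt cells, with bars of 1 standard error, in the fit without the 2 libraries that stand apart; Elovl6 is not drawn because its counts are near 0. Sqle lies between 3.03 and 3.65, while Ebp lies near 0 and Scap below 0 in all 4 comparisons.

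Markers of other cells moved with culture. In the NFKBIE-ko cultures 4 of the 8 granulocyte markers, 3 of the 10 macrophage markers and 2 of the 8 erythroid markers were at 0 in every library, and the macrophage sum was 37.5 to 46.5 CPM against 98.4 to 364 in the spleens and 3900 to 5690 in the PC. T-cell markers summed to 319 to 344 CPM in these cultures, 774 to 984 in the spleens and 815 to 993 in the PC. In these cultures Il7r and Lck averaged 143 and 127 CPM, whereas Trac and Cd3d averaged 3.44 and 0.362 CPM. The T-cell sum is therefore a weak measure of T cells. Proliferation genes, 8 of 8 measured, summed to 3190 to 3480 CPM in culture, 2610 to 3040 in the spleens and 1100 to 1500 in the PC. The part of cell composition in these differences was not tested.

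Cells of the PC and the spleen, both from mice, differed in Scd1 in both genotypes. The paper describes recovery of cells from both spleen and PC of the transplanted mice. The labels do not tie spleen and PC samples to individual mice, and the samples were tested as independent. Scd1 had 3780, 3380, 3630 and 3120 CPM in the NFKBIE-wt PC against 1230, 1380, 1450 and 860 in the spleen, a log2 fold change of 1.50 (SE 0.26, 2.83-fold, adjusted p of 0.000188). In NFKBIE-ko cells the PC values given above stood against 429, 901, 482 and 515 CPM in the spleen, a log2 fold change of 2.12 (SE 0.26, 4.35-fold, adjusted p of 2.25e-06). PC and spleen did not overlap for Scd1 in either genotype, and without the 2 libraries the changes were 1.38 (SE 0.21, 2.6-fold, adjusted p of 6.6e-05) and 2.12 (SE 0.20, 4.34-fold, adjusted p of 7.54e-08). Macrophage markers summed to 601 to 1780 CPM in the NFKBIE-wt PC against 28.9 to 93.2 in the NFKBIE-wt spleens, and proliferation genes to 1000 to 1400 against 2110 to 3330. The same sums differed between PC and spleen of NFKBIE-ko cells, as given above, and their part in the differences was not tested.

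In NFKBIE-wt cells, Scd1 was the 1 member higher in the PC and 7 were lower, against 15.8% and 19.7% of the genes tested. With all libraries the lower ones included Sqle (-2.11, SE 0.73, adjusted p of 0.0309), Idi1 (-2, SE 0.55, adjusted p of 0.00865), Hsd17b7 (-1.14, SE 0.40, adjusted p of 0.0315) and Insig1 (-1.32, SE 0.47, adjusted p of 0.0359). Hsd17b7, an enzyme of the removal of methyl groups, had 8.41, 9.06, 8.43 and 6.38 CPM in the PC and 12.2, 9.27, 10.4 and 39.4 in the spleen. Those sizes rested on the library labelled NFKBIE-wt spleen replicate 4. Without the 2 libraries 3 were higher and 6 lower, against 18.7% and 20.1%, and Sqle was at -0.19 (SE 0.11, adjusted p of 0.171). Idi1 was then lower by -0.81 (SE 0.10, 1.75-fold, adjusted p of 8.42e-06), Mvk by -0.53 (SE 0.16, adjusted p of 0.0123), Pmvk by -0.43 (SE 0.10, adjusted p of 0.00254) and Insig1 by -0.38 (SE 0.14, adjusted p of 0.0422), and Cyp51 (0.48, SE 0.12, adjusted p of 0.00397) and Srebf2 (0.28, SE 0.10, adjusted p of 0.0319) were higher in the PC.

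In NFKBIE-ko cells 3 members were higher in the PC than in the spleen and 2 were lower, against 25% and 26.1% of the genes tested. Mvk, the mevalonate kinase, had 8.13, 8.34, 9.69 and 9.97 CPM in the PC and 13.2, 11.6, 18.4 and 17.1 in the spleen, a log2 fold change of -0.74 (SE 0.16, 1.67-fold, adjusted p of 0.00075). Pmvk, the next kinase of the route, had 14.4, 17.1, 17.3 and 16.6 CPM against 23.7, 26.9, 26.9 and 22.5, a log2 fold change of -0.61 (SE 0.11, 1.53-fold, adjusted p of 8.65e-05). The groups did not overlap for either kinase.

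Tm7sf2, a sterol reductase, had 5.93, 5.88, 6.25 and 6.61 CPM in the NFKBIE-ko PC and 3.14, 3.78, 2.82 and 2.47 in the spleen, a log2 fold change of 1.01 (SE 0.31, 2.02-fold, adjusted p of 0.0097). It thus ran against the kinases, and all its PC libraries lay above all its spleen libraries. Acly was higher by 0.19 (SE 0.07, adjusted p of 0.0395), with overlap between the groups (592, 618, 559 and 599 CPM in the PC, 498, 533, 478 and 572 in the spleen). Without the 2 libraries 3 were higher and 16 lower, against 28.4% and 29.4%, among them Idi1 (-1.11, SE 0.10, 2.16-fold, adjusted p of 2.93e-08), Insig1 (-0.73, SE 0.13, adjusted p of 0.000148), Lss, which closes the sterol ring system (-0.60, SE 0.12, adjusted p of 0.000342), and Sqle (-0.43, SE 0.10, adjusted p of 0.00106).

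The genotypes were compared within each compartment. In the PC, 5 of the 28 members tested were higher and 9 lower in NFKBIE-ko cells, against 22.5% and 20.9% of the 12642 genes tested, and 0 of the 14 went beyond 1 on the log2 scale. The share of members called in each direction was thus near that of all genes for the higher ones and above it for the lower ones. The spread between replicates was smaller in the PC (common biological coefficient of variation 0.148) than in the spleen (0.295) or in vitro (0.284).

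Regulators were among the members with the smallest adjusted p in the PC. Insig1, with the PC values given above for both genotypes, was lower in NFKBIE-ko cells by -0.61 (SE 0.09, 1.52-fold, adjusted p of 0.000417). Srebf1 had 56.3, 57.5, 68.2 and 60.2 CPM in the NFKBIE-ko PC and 104, 80.2, 108 and 91.0 in the NFKBIE-wt PC, which gave a log2 fold change of -0.68 (SE 0.11, 1.6-fold, adjusted p of 0.000531). All NFKBIE-ko libraries lay below all NFKBIE-wt libraries for both genes. Srebf2 was higher by 0.20 (SE 0.07, 1.15-fold, adjusted p of 0.0339), also without overlap, while Scap (-0.16, SE 0.07, adjusted p of 0.0770) and Stard4 (-0.02, SE 0.09, adjusted p of 0.864) were not called.

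The cholesterol enzymes split into 4 higher, 4 lower and 9 not called in the PC. Cyp51 was lower by -0.60 (SE 0.09, 1.52-fold, adjusted p of 0.000429), and Sqle was higher by 0.35 (SE 0.06, 1.27-fold, adjusted p of 0.00148), both without overlap in the PC values given above. Mvd, which decarboxylates mevalonate diphosphate, had 18.9, 17, 20.0 and 19.9 CPM in the NFKBIE-ko PC and 14.2, 13.6, 9.52 and 13.3 in the NFKBIE-wt PC, or a log2 fold change of 0.57 (SE 0.13, 1.48-fold, adjusted p of 0.00538). Its groups did not overlap either. Tm7sf2 (0.52, SE 0.14, adjusted p of 0.0141) and Idi1 (0.33, SE 0.09, adjusted p of 0.00979) were also higher. Mvk (-0.44, SE 0.14, adjusted p of 0.0258), Sc5d, the sterol desaturase (-0.39, SE 0.09, adjusted p of 0.00645), and Lss (-0.29, SE 0.10, adjusted p of 0.0421) were also lower. The direction of Lss did not hold with its most abundant transcript, which is protein-coding and stood at 0.0367. Retained-intron transcripts held 26.1% of the counts of Lss. The values of Hmgcs1 (0.13), Msmo1 (0.03), Nsdhl (-0.0044) and Dhcr7, the last enzyme of one branch (-0.10), had adjusted p between 0.157 and 0.974.

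Among the fatty acid enzymes 3 of the 6 tested were lower in the NFKBIE-ko PC and 0 were higher. Scd1, given above, was lower by -0.47 (SE 0.09, 1.39-fold, adjusted p of 0.00177). Scd2 had 423, 372, 553 and 408 CPM in the NFKBIE-wt PC against the 307 to 333 of the NFKBIE-ko PC, a log2 fold change of -0.47 (SE 0.11, 1.38-fold, adjusted p of 0.00641). Acss2 had 7.26, 5.48, 7.56 and 6.49 CPM in the NFKBIE-ko PC and 11.3, 11.4, 10.3 and 9.5 in the NFKBIE-wt PC, for a log2 fold change of -0.68 (SE 0.13, 1.6-fold, adjusted p of 0.0022). None of the 3 had overlapping groups, which describes the values only, since the share of all genes without overlap is not given. Of all genes tested in the PC, 22.5% were called higher and 20.9% lower. Fasn (-0.02, adjusted p of 0.909), Acaca (0.07, adjusted p of 0.686) and Acly (-0.01, adjusted p of 0.891) were not called, and Elovl6 had too few counts to be tested.

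The calls in the PC depended on which libraries set the spread. In one fit of all 22 libraries 2 of the members were called, against 3194 of the 13537 genes tested. In one fit of the other 20 libraries, chosen after seeing the data, 11 were, against 4577 of 13758. Markers of macrophages, 10 of 10 measured, summed to 3900 to 5690 CPM in the NFKBIE-ko PC and 601 to 1780 in the NFKBIE-wt PC, those of granulocytes to 29.5 to 43.3 against 141 to 404, those of T cells to 815 to 993 against 1270 to 1540, and those of leukemic B cells to 3370 to 3570 against 2800 to 3010. Markers of stromal and endothelial cells summed to 104 to 125 against 77.5 to 91.6 CPM, and those of adipocytes and mesothelium (5 of 8 in the table) to 1.40 to 2.10 against 2.98 to 4.69. None of these ranges overlapped. Those of erythroid markers (4.19 to 73.1 against 6.13 to 72.8 CPM) and of proliferation genes (1100 to 1500 against 1000 to 1400 CPM) did overlap. The part of all these sums in the differences of the members was not tested. The T-cell sum includes Il7r and Lck, which were also expressed in the NFKBIE-ko cultures. The stromal and endothelial sum includes Pecam1, at a mean of 45.9 CPM in those cultures. Neither sum can be read as the content of those cells alone.

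**Figure D4:**
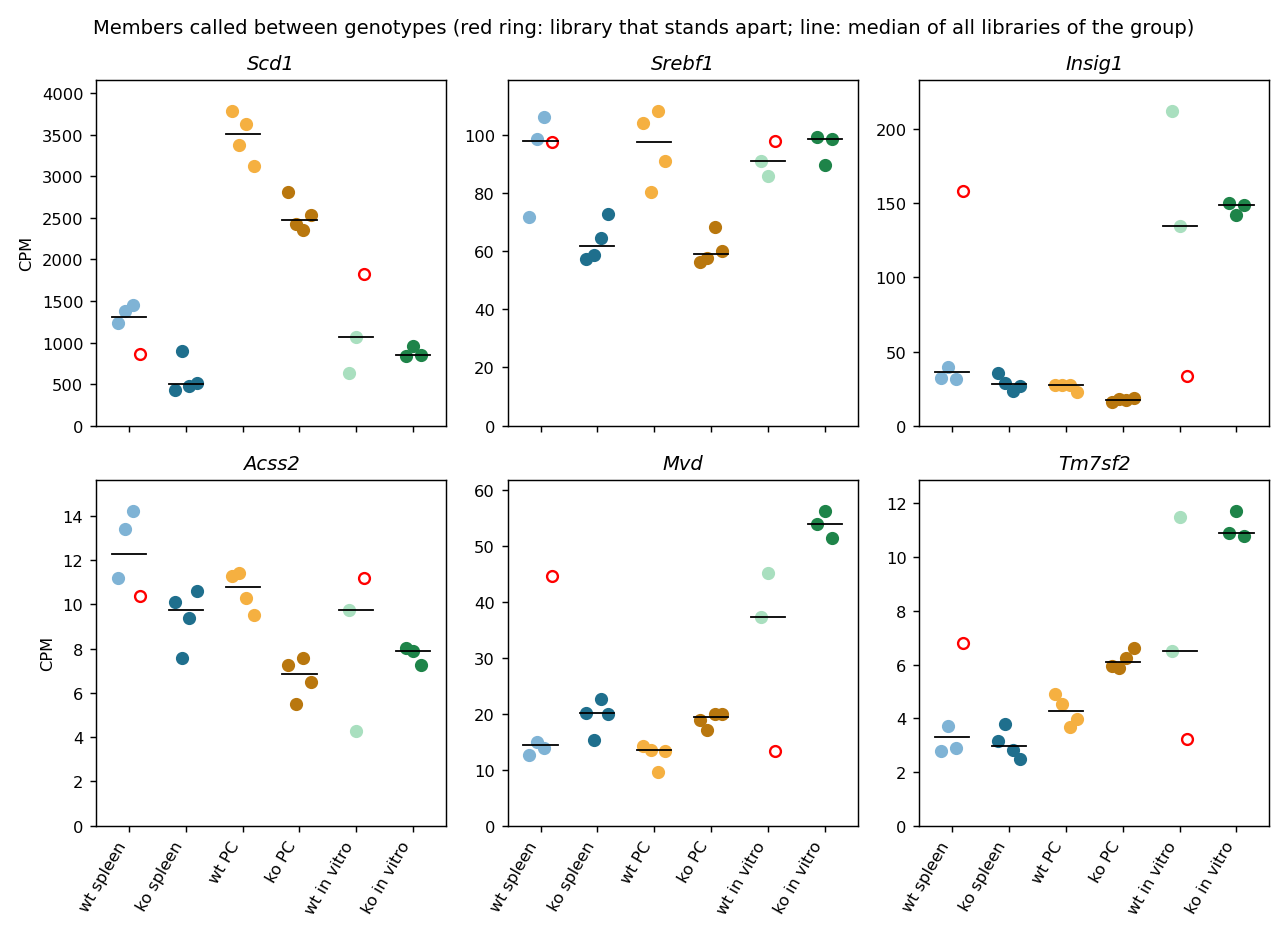
CPM of 6 genes in each library of the 6 groups, on linear axes that start at 0; points are libraries, open red rings mark the 2 libraries that stand apart, and lines are the medians of all libraries of a group. In the PC the NFKBIE-ko points of Scd1, Srebf1, Insig1 and Acss2 lie below all NFKBIE-wt points, and those of Mvd and Tm7sf2 above.

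In the spleen with all libraries, Scd1 was the only one of the 28 members tested that was called, against 2.3% of the 12221 genes tested called higher and 3.13% lower. It was lower in the libraries labelled NFKBIE-ko by -1.09 (SE 0.26, 2.12-fold, adjusted p of 0.0437). The groups overlapped, since the fourth library labelled NFKBIE-wt had 860 CPM and the second labelled NFKBIE-ko 901. The call was lost with the most abundant transcript per gene (adjusted p of 0.0666) and in 6 of the 8 fits that left out 1 library, all but those without NFKBIE-wt replicate 4 or NFKBIE-ko replicate 2 (adjusted p from 0.0111 to 0.15). Srebf1 stood at -0.57 (adjusted p of 0.0562). It had 71.7, 98.6, 106 and 97.4 CPM in the NFKBIE-wt spleens and 57.2, 58.6, 64.6 and 72.8 in the NFKBIE-ko spleens, which overlapped by 1 library on each side.

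Once NFKBIE-wt spleen replicate 4 was left out, 2 members were higher and 2 lower in the spleen, against 5.48% and 6.68% of the 12471 genes tested. Scd1 was lower by -1.22 (SE 0.24, 2.32-fold, adjusted p of 0.0142) and the groups then no longer overlapped. Idi1 was higher by 0.62 (SE 0.13, 1.54-fold, adjusted p of 0.0148) and Sqle by 0.58 (SE 0.16, 1.5-fold, adjusted p of 0.0478), where both had been negative with all libraries. Elovl6 was lower (10 to 18 counts in NFKBIE-wt, 2 to 5 in NFKBIE-ko, adjusted p of 0.0374), at counts too low for a firm size. Srebf1 stayed short of the threshold (-0.54, SE 0.16, adjusted p of 0.0553). Macrophage markers summed to 98.4 to 364 CPM in the NFKBIE-ko spleens and to 28.9 to 93.2 in the NFKBIE-wt spleens, and their part was not tested.

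In vitro 0 members were called by edgeR, and 0 by DESeq2, with all libraries. Of the 11722 genes tested, edgeR called 0.0341% higher and 0% lower. At an unadjusted p below 0.05 were 2 members and 1124 of all genes, and the smallest adjusted p of a member was 0.517. Once NFKBIE-wt in vitro replicate 3 was left out, 0 were called, against 0.059% and 0.0169% of the 11865 genes tested. At an unadjusted p below 0.05 were 10 members, and the share of all genes at that threshold is not given. In that comparison of 3 with 2 cultures the cholesterol enzymes had a median of 0.23 on the log2 scale. The smallest adjusted p was that of Nsdhl, which acts on methyl groups of sterols (0.37, SE 0.08, adjusted p of 0.243), followed by Fdps, the farnesyl diphosphate synthase (0.30, SE 0.07, adjusted p of 0.287). The 69.6, 70.9 and 70.3 CPM of Nsdhl in the NFKBIE-ko cultures lay above the 51.6 and 57.7 CPM of the first 2 NFKBIE-wt cultures and the 17.8 CPM of the third.

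**Figure D5:**
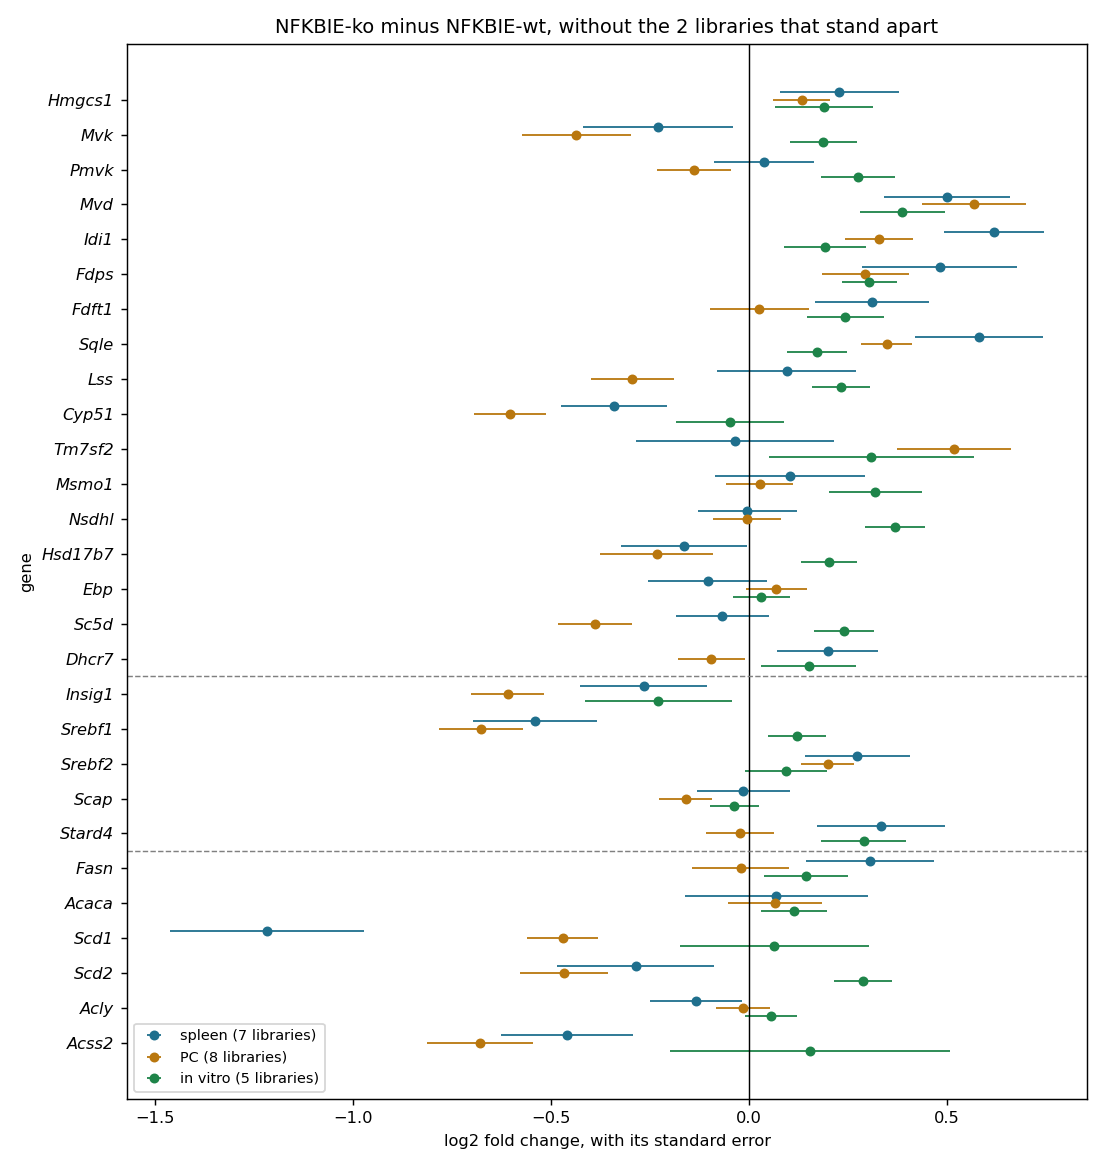
Log2 fold change of NFKBIE-ko against NFKBIE-wt for each gene in the spleen, the PC and in vitro, with bars of 1 standard error, the spleen and in vitro values being those without the 2 libraries that stand apart; Elovl6 is not drawn. For spleen, PC and in vitro in turn, Srebf1 lies at -0.54, -0.68 and 0.12, and Scd1 at -1.22, -0.47 and 0.06.

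Differences of the genotype effect between compartments were tested in one fit. Between the PC and culture, Srebf1 differed by -0.73 (SE 0.18, adjusted p of 0.0295) and was the 1 member called, against 3.83% of the genes tested called higher and 0.975% lower. In culture Srebf1 had 99.1, 89.5 and 98.7 CPM in NFKBIE-ko cells and 91.0, 85.8 and 97.7 in NFKBIE-wt cells, which overlapped, unlike the PC values. The call of Srebf1 was lost with the most abundant transcript per gene (adjusted p of 0.0903) and in 7 of the 14 fits that left out 1 library (adjusted p from 0.033 to 0.0844), namely those without replicates 1 or 3 of the NFKBIE-wt PC, replicates 2 or 4 of the NFKBIE-ko PC, or any of the 3 NFKBIE-ko cultures. DESeq2 called Srebf1 (-0.71, adjusted p of 0.00402) and Mvk (-0.72, adjusted p of 0.0464), and 1440 of the 13537 genes in all. The difference of Srebf1 without the 2 libraries was -0.79 (SE 0.20, adjusted p of 0.0247) and Sc5d was called as well (-0.62, SE 0.14, adjusted p of 0.0158), against 4.24% and 1.88%. Sc5d had 18.3, 23.9, 19.9 and 22.2 CPM in the NFKBIE-ko PC and 29, 26.6, 26.5 and 27.1 in the NFKBIE-wt PC, but 85.8, 87.3 and 83.2 in the NFKBIE-ko cultures and 68.7, 76.7 and 29.2 in the NFKBIE-wt cultures. The NFKBIE-ko libraries were thus the lower ones in the PC and the higher ones in culture.

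Between the spleen and the PC 0 members were called by edgeR and by DESeq2 (1 at an unadjusted p below 0.05, smallest adjusted p of 0.226), against 2.17% and 2.75% of the genes tested, and 0 without the 2 libraries (6 at an unadjusted p below 0.05, smallest adjusted p of 0.11), against 3.86% and 4.39%. Between the spleen and culture 0 were called by edgeR and 2 by DESeq2 (11 at an unadjusted p below 0.05, smallest adjusted p of 0.0928, for Srebf1), against 0.236% and 0.207%, and 0 without the 2 libraries (6 at an unadjusted p below 0.05, smallest adjusted p of 0.0694, for Scd1 at -1.27), against 0.56% and 0.378%. The 2 members that DESeq2 called between spleen and culture were Srebf1 (-0.61, SE 0.19, adjusted p of 0.0261) and Scd2 (-1.05, SE 0.34, adjusted p of 0.0404). With all libraries DESeq2 called 803 of the 13537 genes there, whereas the percentages above are of adjusted calls by edgeR. At an unadjusted p below 0.05 edgeR had 2156 genes there, and 2760 between spleen and PC. For the fits without the 2 libraries the count of all genes at an unadjusted p is not given.

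Further genes of the pathways were counted in 6 lists. Of 11 other genes of sterol and isoprenoid synthesis, 9 were higher and 0 lower in NFKBIE-ko culture than in the PC, against 23.9% and 24.1% of all genes tested, led by Pdss1, which makes the side chain of ubiquinone (1.03, SE 0.12, adjusted p of 1.83e-06), and Acat2, the acetoacetyl-CoA thiolase of the cytosol (2.30, SE 0.30, adjusted p of 5.32e-06). Against the spleen 4 of the 11 were higher in culture and 0 lower, against 13.4% and 16.9%. Of the same 11, 6 were lower and 0 higher in the NFKBIE-ko PC than in the spleen, where 26.1% and 25% of all genes were, with Pdss1 at -1.28 (SE 0.11, adjusted p of 4.49e-08). Between genotypes in the PC, 2 were higher and 0 lower, against 22.5% and 20.9% of all genes, among them Pggt1b, a subunit of a protein prenyltransferase (0.47, SE 0.10, adjusted p of 0.00408).

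Of 8 further regulators of the SREBP pathway, 4 were higher and 1 was lower in NFKBIE-ko culture than in the spleen, against 13.4% and 16.9% of all genes. Insig2, the relative of Insig1, rose by 0.98 (SE 0.14, adjusted p of 0.000277), and Erlin1 was lower by -1.03 (SE 0.19, adjusted p of 0.00122). Between genotypes in the PC, 2 were higher (Erlin1 at 0.32 and Insig2 at 0.38) and 2 lower, shares near the 22.5% and 20.9% of all genes. Insig2 had a median of 30.4 CPM in the NFKBIE-ko PC and 21.6 in the NFKBIE-wt PC, opposite to Insig1, and its groups overlapped.

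Of 8 genes of sterol efflux and storage and their regulators, the LXR receptors, 4 were higher and 3 lower in the NFKBIE-ko PC, against 22.5% and 20.9% of all genes. Soat1, which esterifies cholesterol, was higher by 2.23 (SE 0.16, adjusted p of 4.76e-06), as was Rxra, the partner of LXR (1.77, SE 0.20, adjusted p of 6.93e-05), whereas Abcg1, an exporter of cholesterol, was lower by -1.11 (SE 0.12, adjusted p of 5.69e-05). In the spleen 2 were higher and 2 lower with all libraries, against 2.3% and 3.13%, with Soat1 at 1.05 (SE 0.22, adjusted p of 0.0314) and Lpcat3 at -0.77 (SE 0.14, adjusted p of 0.0190). Once NFKBIE-wt spleen replicate 4 was left out, 2 were higher and 3 lower, against 5.48% and 6.68%, with Soat1 at 1.15 (SE 0.23, adjusted p of 0.0142) and Lpcat3 at -0.73 (SE 0.15, adjusted p of 0.0162). Abca1, the other main exporter, was among the lower ones in the spleen and among the higher ones in the PC. Its medians were 38.8 and 3.3 CPM in the NFKBIE-wt and NFKBIE-ko spleens and 62.7 and 95.1 CPM in the respective PC.

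Of 8 genes of sterol uptake and transport within the cell, 3 were higher and 0 lower in the NFKBIE-ko PC than in the NFKBIE-wt PC, against 22.5% and 20.9% of all genes. Lipa, the lysosomal lipase, was at 114 to 128 against 54.3 to 62.7 CPM (1.04, SE 0.07, adjusted p of 1.86e-06), and Npc1, which moves cholesterol out of lysosomes, at 172 to 212 against 107 to 129 CPM (0.66, SE 0.09, adjusted p of 0.000171). Of 15 genes of fatty acid elongation, desaturation and supply, 5 were higher and 2 lower there, against the same shares, with Acacb, the mitochondrial acetyl-CoA carboxylase, at 1.38 (SE 0.15, adjusted p of 5.49e-05) and Acsl3 at -1 (SE 0.12, adjusted p of 0.000118). Of the same 15, 9 were higher and 0 lower in NFKBIE-ko culture than in the spleen, against 13.4% and 16.9%, with Acsl3 at 2.31 (SE 0.36, adjusted p of 0.000423).

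Of 11 genes of fatty acid oxidation, 2 were higher and 4 lower in the NFKBIE-ko PC than in the NFKBIE-wt PC, against 22.5% and 20.9% of all genes, led by Acadm (-0.38, SE 0.07, adjusted p of 0.00161). Between NFKBIE-ko culture and PC, 8 of the 11 were lower in culture and 0 higher, against 24.1% and 23.9%, among them Cpt1a, which admits fatty acids to mitochondria (-1.29, SE 0.27, adjusted p of 0.000781). Macrophage marker sums moved with the PC as given above, and their part in the counts of these lists was not tested.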

How the data were processed

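The authors sequenced paired-end mRNA libraries and, per the submitters' processing notes, quantified them with Salmon 1.8 on GRCm39. They deposited estimated counts per transcript without normalization (62492 transcripts, each above 0 in at least 5 of 22 samples). Salmon divides shared reads between transcripts, so that 69.54% of the values were not whole.

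Transcripts were matched to GENCODE M39 (62147 matched, and the rest held 0.619% of the counts), summed to 17023 genes and rounded. Genes were tested with edgeR 4.0.16 in R 4.3.3 (filterByExpr, TMM, robust quasi-likelihood fits), with Benjamini-Hochberg adjustment over all genes. Genotypes were compared within each compartment, and compartments and the differences of the genotype effect in one fit of all samples. The standard error is the absolute log2 fold change divided by the square root of F. The fits without the 2 libraries left out NFKBIE-wt spleen replicate 4 and NFKBIE-wt in vitro replicate 3. P-values rest on the spread between samples within groups. In fits of all samples that spread is estimated over all groups, also those outside the comparison.

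Values of every library are given for members called between genotypes, up to the 8 with the smallest adjusted p in a comparison, and for the 3 members of each list with the largest change between compartments. Other genes are named where called, up to 3 in a list and comparison by adjusted p, and a few more members were named after their values were seen. The members and all gene lists were chosen with earlier results of these data known. Some genes of the lists are counted but not reported by name here. Whether the libraries of compared groups overlap is given as a description of the values and was not a test. The share of all genes without overlap is not given beside it.

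Replicate numbers gave no clear sign of pairing, and the samples were treated as independent. Such correlations cannot exclude that a spleen and a PC sample came from the same mouse. The correlation of deviations between samples with the same number lay between -0.326 and 0.172 across genotypes and between -0.334 and 0.452 across compartments. No replicates agreed within sampling noise.

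The fits were tested on simulated data with known changes. The alternatives were DESeq2 1.42.0, RLE size factors, other filters, the most abundant transcript per gene, a replicate block, other sets of samples and other thresholds. Promoters were searched in Python 3.11.15, and figures drawn with matplotlib 3.10.9.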

Additional observations from a re-analysis of the deposited data

Results flagged for a closer look

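In groups of 4 libraries, the highest or lowest library was set apart where its gap to the nearest of the others, as a share of the range of the group, exceeded Dixon's critical value. This held in 16 of 116 tests, where chance gives about 1 in 20 of independent tests. The 116 tests share their libraries and are not independent, so the count is a description. In 15 of the 16 the library labelled NFKBIE-wt spleen replicate 4 stood above the other 3 NFKBIE-wt spleens. Among the cholesterol enzymes it had 255 CPM for Hmgcs1, 44.5 for Mvd, 288 for Idi1, 104 for Fdps, 28.1 for Fdft1, 381 for Sqle, 297 for Cyp51, 136 for Msmo1, 55.0 for Nsdhl, 39.4 for Hsd17b7, 69 for Sc5d and 61.5 for Dhcr7. Among the regulators and carriers it had 158 CPM for Insig1, 532 for Srebf2 and 118 for Stard4. The other 3 NFKBIE-wt spleens had at most 63.4 CPM for any of the 12 enzymes.

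The library NFKBIE-wt PC replicate 4 had 22.8 CPM of Insig1, below the other 3 at 27.2 to 27.6. The effect of the genotype on Srebf1 in the PC minus that in vitro, -0.7293 on the log2 scale (edgeR, adjusted p of 0.0295), passed its own test. The call was lost in 7 of the 14 fits that left out 1 library and with the most abundant transcript per gene (adjusted p of 0.0903).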

How the results depend on the processing

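Counts here are of the 29 members called. The replicate block (replicate numbers gave no clear sign of pairing) gave 0 in the spleen between genotypes, with Idi1 at 0.0269 on the log2 scale, 3 for PC against spleen in NFKBIE-wt, 0 for in vitro against PC in NFKBIE-wt and 14 for PC against spleen in NFKBIE-ko cells. Leaving out the 2 libraries gave 4 between genotypes in the spleen (Idi1 0.6195 and Sqle 0.5823), 22 for in vitro against spleen in NFKBIE-wt, 19 for PC against spleen in NFKBIE-ko and 2 for the difference of effects between PC and in vitro, and put Cyp51 at 0.4812 and Srebf2 at 0.2807 for PC against spleen of NFKBIE-wt. With 1 library left out at a time, Idi1 ran from -0.8112 to 0.6195 and Sqle from -1.6428 to 0.5823 between genotypes in the spleen, and Cyp51 from -0.7704 to 0.4653 and Srebf2 from -0.5801 to 0.2633 for PC against spleen of NFKBIE-wt, each positive where NFKBIE-wt spleen replicate 4 was the one left out. In NFKBIE-wt cells Scd1 ran from -0.5345 to 0.2338 between in vitro and spleen (positive if NFKBIE-wt in vitro replicate 1 or NFKBIE-wt spleen replicate 3, 0.0208, was the one left out), and Elovl6 from -2.8006 to 0.084 between in vitro and PC (positive if NFKBIE-wt in vitro replicate 2 was).

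All 22 samples in one fit gave 2 between genotypes in the spleen and 2 in the PC, where a fit of 20, added after seeing the data, gave 11 in the PC. DESeq2 gave 2 in the spleen, 2 for the difference of effects between spleen and in vitro and 2 for that between PC and in vitro. The most abundant transcript per gene gave 0 in the spleen and 0 for that difference, with Lss at 0.0367 in the PC. Fits of only the 2 groups compared gave 4 for PC against spleen in NFKBIE-wt and 16 in NFKBIE-ko. A log2 fold change beyond 1 left 0 between genotypes in the PC, 5 and 2 for PC against spleen in NFKBIE-wt and NFKBIE-ko and 0 for the difference between PC and in vitro. An unadjusted p gave 5 in the spleen, 2 in vitro, 15 for PC against spleen and 5 for in vitro against spleen in NFKBIE-wt, and 1, 11 and 5 for the differences of effects between spleen and PC, spleen and in vitro, and PC and in vitro. Over all genes it gave 2814 in the spleen and 6084 for PC against spleen in NFKBIE-wt. For the differences of effects it gave 2760, 2156 and 2693 genes in the same order.

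With 1 library left out at a time, the count was 0 to 4 between genotypes in the spleen, 11 to 13 in the PC and 0 to 0 in vitro. For NFKBIE-ko it was 22 to 23 for in vitro against spleen, 22 to 24 for in vitro against PC and 4 to 6 for PC against spleen. For NFKBIE-wt it was 0 to 18, 15 to 22 and 3 to 12. The differences of effects gave 0 to 0 (spleen and PC), 0 to 1 (spleen and in vitro) and 0 to 1 (PC and in vitro). Over all genes, 663 were called between genotypes in the spleen, against 1591 by DESeq2, 360 by the most abundant transcript, 90 with the replicate block, 2120 in one fit of all samples and 1517 without the 2 libraries. In the PC 5488 were called, against 3194 in one fit of all samples and 1702 beyond a log2 of 1. For NFKBIE-wt, PC against spleen gave 4802 (2255 with the block), in vitro against spleen 0 (3607 without the 2 libraries, 1059 at an unadjusted p) and in vitro against PC 4619 (15 with the block). DESeq2 gave 803 and 1440 for the differences of effects between in vitro and spleen or PC, where edgeR gave 60 and 650. Between spleen and PC these were 1238 and 666. Between genotypes in vitro 4 were called, against 218 by DESeq2, 276 in one fit of all samples and 1124 at an unadjusted p. Of 2208 refits of 144 results for single genes, 1936 kept direction and side of the threshold, 160 lost the call, 99 gained it and 13 changed sign. The cause of these changes was not tested. The limits are few replicates, 2 libraries against their labels and unpurified cells. Members at under 20 counts (Elovl6) allow no fold, and the in vitro fit without the 2 libraries rests on 2 NFKBIE-wt cultures.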
